A study of Mus musculus with 48 samples.

Results

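Cirbp encodes the cold-inducible RNA-binding protein, and its RNA was followed here in mouse embryonic limb buds after maternal exposure to a teratogen. On the Affymetrix MG-U74Av2 array, 1 probe set of 12488 named Cirbp and no other gene, so Cirbp is 1 of the 8252 genes for which a value could be formed. Its Entrez identifier is 12696 and it lies on mouse chromosome 10. Cirbp was chosen by these same measured values, its ratios of treated to vehicle arrays over the 2 agents, 2 tissues and 2 times, so those ratios are described below without a test.

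On day 9.5 of gestation, pregnant mice received an intraperitoneal injection of cadmium sulfate (4 mg/kg) in phosphate-buffered saline (PBS), of PBS alone, of acetazolamide (400 mg/kg) suspended in vegetable oil, or of the oil alone. Cadmium is a toxic metal and acetazolamide an inhibitor of carbonic anhydrase. Both are known to cause limb malformations in mice, most often of the right forelimb. Right forelimb buds were taken 3 h or 12 h after injection and split with trypsin into ectoderm, the covering epithelium, and mesoderm, the mesenchymal core. The 2 agents with their vehicles, the 2 tissues and the 2 times made 16 groups of 3 arrays, or 48 arrays. Tissue of several litters was pooled to obtain RNA, while the sample descriptions call the extracts non-pooled, so how litters and arrays correspond is not settled by the labels. The mouse strain is not given in the sources used here.

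Cirbp is one of a small set of vertebrate genes whose RNA becomes more abundant when cells are cooled slightly and less abundant when they are warmed. The protein joins an RNA recognition motif to a tail rich in arginine and glycine, binds messenger RNA, and moves from the nucleus to cytoplasmic stress granules under several kinds of stress. It is also known for its daily rhythm, which follows body temperature, and for its effect on the messages of clock genes. Rbm3 encodes its closest relative among cold-inducible proteins. The temperature of the dams or embryos is not given in the labels.

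The promoter window of Cirbp is shown because a short element in such promoters, TCCCCGCC, has been described as a mild-cold response element. The window holds the 250 bases before the first of 2 listed starts, from RefSeq on GRCm38.p6, on the plus strand of chr10:80167589-80167838, with that element in capitals.

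Cirbp promoter: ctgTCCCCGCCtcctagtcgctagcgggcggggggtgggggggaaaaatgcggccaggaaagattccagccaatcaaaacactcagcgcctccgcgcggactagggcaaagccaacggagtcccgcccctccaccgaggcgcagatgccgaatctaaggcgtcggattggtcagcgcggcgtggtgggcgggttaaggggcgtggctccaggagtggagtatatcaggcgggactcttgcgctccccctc

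The element begins 247 bases before this start, and 4.64% of the 32851 windows of the same length, searched on both strands, held it. The window before the other start, 332 bases away on chr10:80167921-80168170, held 0 copies. Of the other motifs searched on both strands, CCAAT occurred 2 times in the first window (33.8% of all windows held it) and TGCGCNC 1 time (12.5%). GAANNTTC, the core of a heat shock element, was absent from both Cirbp windows (6.69% of all windows held it), as were TGCACNC (10.4%), CACGTG (6.02%) and ACGTG (16.6%), the last of which lies inside CACGTG. These matches describe letters in a window and nothing about binding.

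Every value below is the base-2 logarithm of the ratio of an array to vehicle arrays of the same agent, tissue and time, as the authors deposited it. By construction the ratios of vehicle arrays 1 and 2 average to 1 and vehicle array 3 is 0 on the log2 scale, so the vehicle arrays show less than their full spread. No expression level was kept. The tissue labels could therefore not be checked against the levels of their markers, and how strongly Cirbp was expressed in either tissue is unknown. The median log2 ratio over all genes ran from -0.11 to 0.10 across arrays.

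Mean Cirbp RNA was higher in treated than in vehicle limb buds 3 h after either agent, in both tissues. In ectoderm after cadmium the groups overlapped. At 12 h the differences were smaller in size and split by agent, with means of 0.20 for cadmium and -0.23 for acetazolamide. The mean difference over the 4 comparisons at 3 h was 0.86 on the log2 scale, or 1.82-fold, with an SD of 0.24 among the comparisons. The mean at 12 h was -0.01, with an SD of 0.27. In a bulk sample, a change in RNA per cell and a change in which cells were present cannot be told apart.

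In ectoderm 3 h after acetazolamide, the treated arrays stood at 1.79, 0.38 and 1.37, and the vehicle arrays at 0.19, -0.22 and 0. All 3 treated arrays lay above all vehicle arrays, as did those of 4.76% of genes, and array 1, at 3.46 on the linear scale, was the highest of the 24 treated arrays. The means were 1.18 ± 0.73 (SD, n = 3) against -0.01 ± 0.20, a difference of 1.19 or 2.28-fold that ranked 5 of 8252 genes from the highest. The spread was wide, with array 2 far below the others, and leaving out 1 array in turn gave differences from 0.81 to 1.62. With an array left out, here and below, the difference was fitted with a separate mean for each denominator, so that dropping either array 3 leaves arrays 1 and 2 of both groups. With all 6 arrays that fit equals the difference of the group means.

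In mesoderm 3 h after acetazolamide, the treated arrays were at 0.87, 0.59 and 1.06 and the vehicle arrays at -0.33, 0.27 and 0. Again the groups did not overlap, which held in this direction for 9.33% of genes. The difference was 0.86, or 1.82-fold, from means of 0.84 ± 0.24 and -0.02 ± 0.30 (SD, n = 3), and ranked 9.

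In mesoderm 3 h after cadmium, the ratios were 0.78, 0.61 and 1.0 on treated arrays and 0.15, -0.17 and 0 on vehicle arrays. The treated arrays lay clear of the vehicle arrays, as for 5.45% of genes, and close to one another, at 0.80 ± 0.20 against -0.01 ± 0.16 (SD, n = 3). The difference of 0.81, or 1.75-fold, was the highest of all 8252 genes in that comparison.

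In ectoderm 3 h after cadmium, the treated arrays stood at 0.41, 0.33 and 0.84, but the vehicle arrays were spread from -0.67 to 0.46. The groups overlapped, with 1 treated array above all vehicle arrays (all 3 lay above for 5.57% of genes). The means were 0.53 ± 0.27 and -0.07 ± 0.57 (SD, n = 3), and the difference of 0.60, or 1.52-fold, ranked 14. Vehicle arrays 1 and 2 decided its size: it was 0.31 without the first and 0.96 without the second.

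At 12 h after acetazolamide the mean ratios lay below those of vehicle in both tissues, with overlapping groups in mesoderm. In ectoderm the treated arrays were at -0.16, -0.09 and -0.78 and the vehicle arrays at -0.02, 0.02 and 0. All 3 treated arrays lay below all vehicle arrays, as for 8.31% of genes, and array 3, at 0.581 on the linear scale, was the lowest treated array of the series. The difference was -0.34, from means of -0.34 ± 0.38 and -0.00 ± 0.02 (SD, n = 3), rank 8032 from the highest, and leaving out 1 array in turn gave differences from -0.43 to -0.13. In mesoderm the treated arrays were at -0.32, -0.09 and 0.05 and the vehicle arrays at -0.08, 0.07 and 0, a difference of -0.12 with 2 treated arrays below all vehicle arrays (all 3 lay below for 2.48% of genes).

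At 12 h after cadmium the mean ratios lay above those of vehicle in both tissues, with overlapping groups. The differences ranked 791 in ectoderm and 1197 in mesoderm of 8252 genes from the highest. In ectoderm the treated arrays were at -0.32, 0.24 and 0.80 and the vehicle arrays at 0.23, -0.27 and 0. The difference of 0.25 was smaller than the treated SD of 0.56, and it was -0.02 from arrays 1 and 2 of both groups alone, which is also the fitted value without either array 3. In mesoderm the treated arrays were at 0.30, 0.07 and 0.08 and the vehicle arrays at 0.11, -0.12 and 0, a difference of 0.15 with 1 treated array above all vehicle arrays. The corresponding shares of genes with all 3 treated arrays above were 4.33% and 9.80%.

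**Figure D1:**
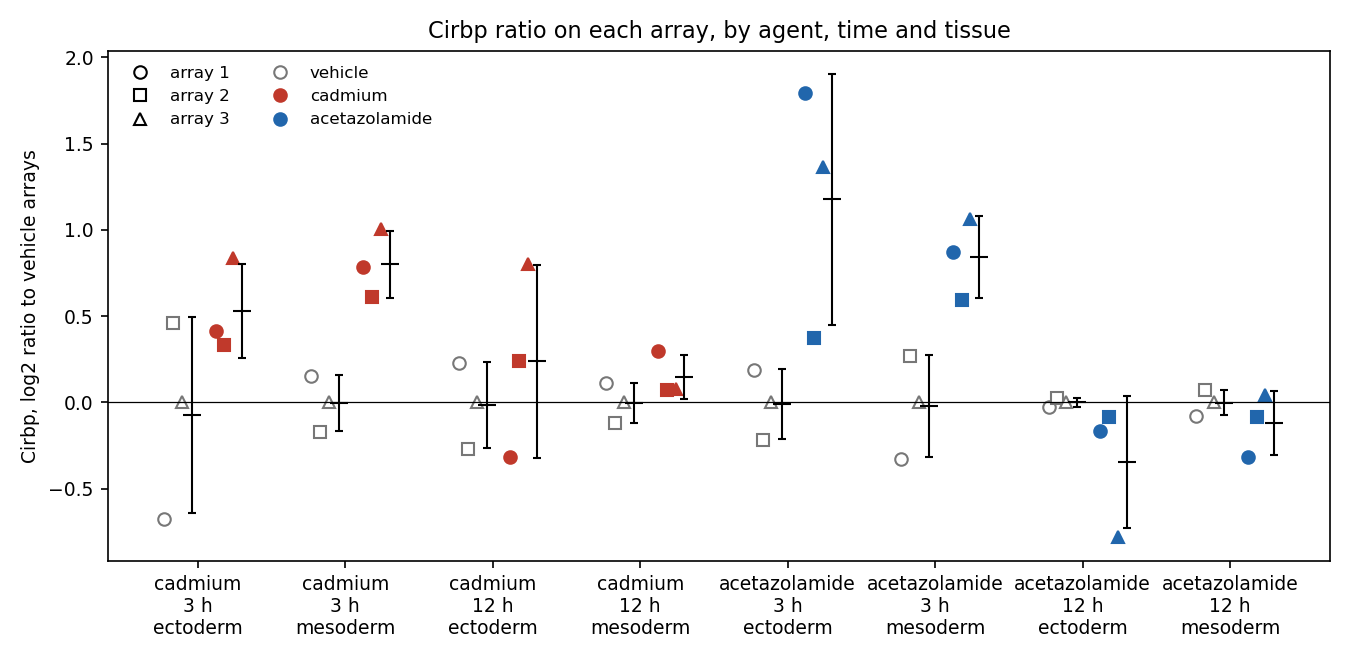
Log2 ratio of Cirbp on each of the 48 arrays (vertical axis), by agent, time and tissue (horizontal axis); open points are vehicle arrays, filled points treated arrays, shapes give the array number, and bars give the mean ± SD of 3 arrays. At 3 h all 12 treated arrays lie above 0, from 0.33 to 1.79, while at 12 h they run from -0.78 to 0.80.

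Arranged by agent, the mean difference at 3 h was 0.70 (1.63-fold) for cadmium and 1.02 (2.03-fold) for acetazolamide. Arranged by tissue, it was 0.89 in ectoderm and 0.83 in mesoderm. In the order 0.60, 0.81, 0.86 and 1.19, no neighbouring pair of the 4 comparisons at 3 h differed by more than the larger SD of its treated arrays. At 12 h the agents lay on opposite sides of 0, at 0.20 for cadmium and -0.23 for acetazolamide. The 2 agents had separate vehicle arrays.

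All 12 treated arrays at 3 h lay above 0, with a median of 0.81, which was so for 33 genes (0.400%), and all 12 lay below 0 for 22 genes (0.267%). At 12 h, 6 of 12 lay above 0. By the mean at 3 h Cirbp ranked 1 of 8252, ahead of Akap17b at 0.58, Msl2 at 0.56 and Spata13 at 0.55. Over all 8 comparisons its mean of 0.42 stood between Ccng1, which encodes cyclin G1, at 0.61 and Gsta4, a glutathione transferase gene, at 0.41. These ranks restate why the gene was chosen.

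**Figure D2:**
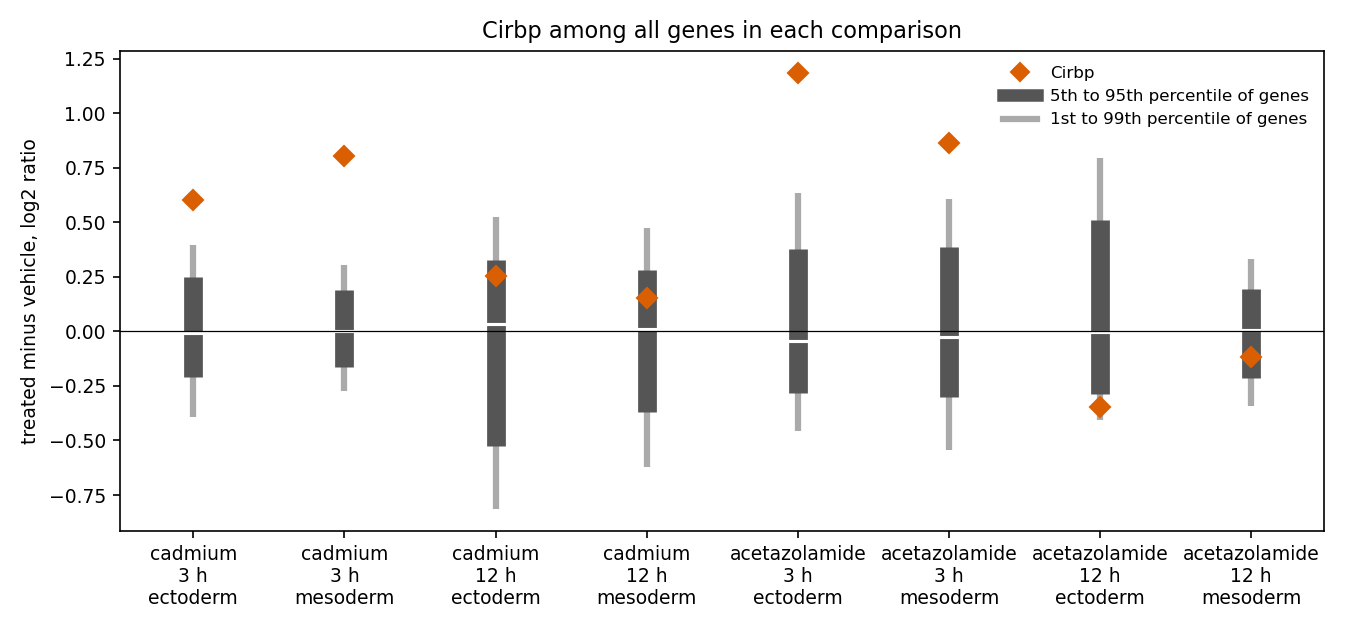
Difference between treated and vehicle arrays in log2 ratio (vertical axis) in each of the 8 comparisons (horizontal axis), with Cirbp as a diamond, the 5th to 95th percentile of genes as a dark bar and the 1st to 99th as a light bar. At 3 h Cirbp, at 0.60 to 1.19, lies above the 99th percentile in every comparison, and at 12 h it lies within the light bar.

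Some properties of the RNA and of the tissue also differed between treated and vehicle arrays. The ratio of the 3' to the 5' control probe sets, a measure of RNA integrity, differed between treated and vehicle arrays after acetazolamide at 3 h by 0.45 in ectoderm and 0.59 in mesoderm for Gapdh and by 0.26 and 0.52 for actin. After acetazolamide at 12 h the differences were 0.41 and 0.42 for Gapdh and 0.23 and 0.24 for actin. After cadmium they were 0.10 and -0.03 for Gapdh and -0.07 and -0.08 for actin at 3 h. At 12 h they were 0.49 and -0.25 for Gapdh and 0.00 and -0.07 for actin. The part of RNA integrity in the ratios of Cirbp was not tested.

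Marker lists of the cell types a limb bud can hold were read in the same comparisons, as differences since no levels exist. Of all genes, 38.9% to 50.3% lay above 0 in the comparisons at 3 h and 49.6% to 57.6% in those at 12 h. Of 16 ectoderm and epithelium markers, 16 lay above 0 in mesoderm 3 h after cadmium, with a median of 0.22, and in the other comparisons at 3 h 7 to 11 did, with medians from -0.05 to 0.06. Of 11 endothelial markers, 0 to 4 lay above 0 at 3 h, with medians from -0.21 to -0.05. Red cell markers had 0 to 3 of 9 above 0, macrophage markers 2 or 3 of 9, and limb mesoderm markers 4 to 7 of 14. None of these markers passed the limma test for the mean at 3 h, where 4, 2, 1, 1 and 2 of them, in that order, had an unadjusted p under 0.05, as had 12.0% of all genes. At 12 h after cadmium, 11 and 10 of 11 endothelial markers lay above 0 in ectoderm and mesoderm, as did 8 of 9 red cell markers in each. After acetazolamide at 12 h the counts were 4 and 5 of 11, and 3 of 9 in each. In the 8 single comparisons the markers that passed in limma were Tie1, Eng and Alas2. All 3 were higher in mesoderm 12 h after cadmium, where 1.05% of all genes passed higher. The part of these lists in the ratios of Cirbp was not tested.

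The genes around Cirbp in its biology were read from 11 lists with 139 measured genes, in a limma model fitted to all genes and adjusted over all of them by the Benjamini-Hochberg method. Cirbp was among the genes fitted, so counts over all genes may include it. The contrast for the mean of the 4 effects at 3 h was added after the values of Cirbp had been seen. In it 47 of 8252 genes passed (0.570%), 34 of them higher (0.412%) and 13 lower (0.158%), the median gene was at -0.02 and 41.6% of genes lay above 0. An unadjusted p under 0.05 was found for 991 genes, or 12.0%, the share beside which the counts for the lists stand. Of the 139 list genes, 1 passed.

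Rbm3 could be read only through 1 probe set, which names Rbm3 and the pseudogene Rbm3-ps, so the 2 cannot be told apart. Its differences in the 4 comparisons at 3 h were 0.24 and 0.15 for cadmium in ectoderm and mesoderm and 0.11 and 0.10 for acetazolamide. At 12 h they were 0.11, 0.20, 0.13 and 0.08 in the same order. Of the 12 treated arrays at each time, 9 lay above 0. The mean at 3 h was 0.15 ± 0.09 (SE), which did not pass in limma (adjusted p = 0.606). This probe set was fitted and adjusted apart from the genes, among the 1633 probe sets that named several genes or none. The list set beside Cirbp and Rbm3, which also holds genes of other families, had 4 measured genes. Of these 3 lay above 0, with a median of 0.12, 0 passed in limma and 1 had an unadjusted p under 0.05. Srsf5, which encodes a splicing factor, was at 0.30 ± 0.10 (SE), Rbmx, a related RNA-binding protein gene, at 0.14, Rtn3, a reticulon gene, at 0.10 and Rbmxl1, a retrogene of the Rbmx family, at -0.03.

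Heat shock genes were included because heat shock factor drives chaperone genes on warming, the condition in which Cirbp is known to fall. Dnajb1, which encodes an Hsp40 co-chaperone of Hsp70, fell in the mean at 3 h by 0.48 ± 0.09 on the log2 scale (SE, limma adjusted p = 0.00709). The SE comes from the limma fit to all 48 arrays. The call held in all 29 alternatives run for it, with adjusted p from 0.00156 to 0.0430. In ectoderm its treated arrays were at -0.43, -0.28 and -0.62 after cadmium and at -0.39, -0.29 and -0.40 after acetazolamide. In mesoderm they were at -0.33, -0.62 and -0.70 after cadmium and at -0.55, -0.23 and -0.97 after acetazolamide. In each of the 4 comparisons all 3 treated arrays lay below all 3 vehicle arrays, which held for 3.82% and 4.18% of genes after cadmium in ectoderm and mesoderm and for 9.09% and 6.59% after acetazolamide. Taken singly the 4 differences of -0.44, -0.53, -0.35 and -0.58 did not pass (limma adjusted p = 0.999, 0.885, 0.730 and 0.423). At 12 h the mean of Dnajb1 was -0.10.

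The rest of the heat shock list did not pass for the mean at 3 h. Over all 22 measured genes, Dnajb1 included, 8 lay above 0 and 14 below, with a median of -0.03, and 7 had an unadjusted p under 0.05. The inducible Hsp70 genes Hspa1b and Hspa1a were at -0.70 ± 0.22 and -0.38 ± 0.13 (SE; limma adjusted p = 0.135 and 0.187). They are nearly identical copies, so their probe sets may share signal. For Hspa1b the third treated arrays in mesoderm, at -2.43 after cadmium and -2.70 after acetazolamide, lay far below the others. Hspa8, the constitutive Hsc70 gene, was at -0.23 ± 0.06 with 11 of 12 arrays below 0 (limma adjusted p = 0.0630), Hsph1, an Hsp110 gene, at -0.28 ± 0.13, and the co-chaperone gene Bag3 at 0.23 ± 0.08. The members with the largest mean effect of each agent were Chordc1, a chaperone-associated gene, at -0.41 for cadmium and Hspa1b at -0.51 for acetazolamide, and neither passed.

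**Figure D3:**
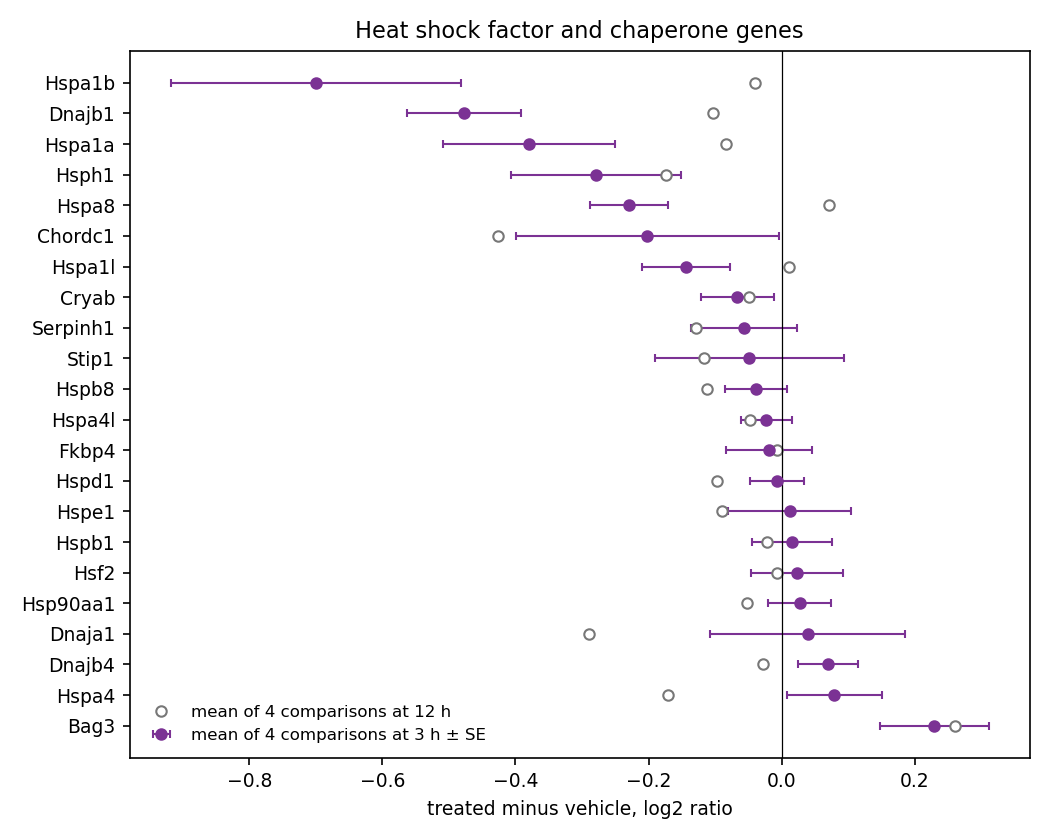
Mean difference between treated and vehicle arrays in log2 ratio (horizontal axis) for the 22 measured heat shock factor and chaperone genes (vertical axis), with the mean of the 4 comparisons at 3 h as filled points ± SE and at 12 h as open points. Dnajb1 at -0.48 is the gene that passed at 3 h, and Hspa1b at -0.70 has the widest error.

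Proteins that carry, modify or phosphorylate Cirbp or its relatives showed no member that passed for the mean at 3 h. Of 11 measured genes 5 lay above 0, with a median of -0.01 and 1 unadjusted p under 0.05. Clk1, a kinase of splicing factors whose activity is known to depend on temperature, was at -0.35 ± 0.12 (SE) in the mean of the 4 cadmium effects and Tnpo2, a transportin gene, at 0.23 ± 0.13 in that of acetazolamide. Among 5 genes whose messages Cirbp is reported to bind, 3 lay above 0, with a median of 0.05 and 0 unadjusted p under 0.05. Rpa2, a subunit of a single-stranded DNA-binding complex, was at -0.17 for cadmium and -0.15 for acetazolamide. Of 18 clock genes 8 lay above 0, with a median of -0.02 and 2 unadjusted p under 0.05, and Bhlhe40, a repressor of the clock, was at 0.32 for cadmium and 0.31 for acetazolamide. None of these genes passed in limma in any of the 8 comparisons.

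Of 15 stress granule genes 9 lay above 0 at 3 h, with a median of 0.04 and 2 unadjusted p under 0.05. G3bp2, a core protein of these granules, was at -0.34 for cadmium and Ago2, an Argonaute gene, at 0.36 for acetazolamide. Of 18 hnRNP genes, which encode proteins that coat nuclear RNA, 17 lay above 0 at 3 h with a median of 0.15, and 0 passed with 4 unadjusted p under 0.05. At 12 h their medians were -0.40 and -0.21 in ectoderm and mesoderm after cadmium and 0.18 and -0.14 after acetazolamide. Hnrnph3 was at -0.36 for cadmium and Hnrnpk at 0.31 for acetazolamide. Of 15 SR splicing genes 10 lay above 0, with a median of 0.04 and 1 unadjusted p under 0.05, with Srsf10 at -0.35 for cadmium and Sf3b1, a spliceosome gene, at 0.29 for acetazolamide. None of the values named in these sentences passed.

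Of 4 cold shock domain genes 3 lay above 0 at 3 h, with a median of 0.01, 0 calls and 0 unadjusted p under 0.05. In the 8 single comparisons, list genes passed only in mesoderm 12 h after cadmium, where 8 of 139 did against 188 of all 8252 genes (2.28%; 1.05% higher and 1.22% lower). In the other 7, where 0 list genes passed, all genes gave 2 calls in cadmium ectoderm at 12 h (0.0242%), 2 and 3 in acetazolamide ectoderm (0.0242%) and mesoderm (0.0364%) at 3 h, and 0 in the rest, where 65 to 649 genes had an unadjusted p under 0.05. Carhsp1, a cold shock domain gene, rose by 0.41 ± 0.11, while Ybx3, another, fell by 0.33 ± 0.09, Hnrnpk fell by 0.70 ± 0.19 and Hspd1, the mitochondrial Hsp60 gene, fell by 0.24 ± 0.07 (SE; limma adjusted p = 0.0459, 0.0458, 0.0490 and 0.0458). These 4 calls were close to the threshold. Leaving out cadmium array 2 or PBS array 1 ended each of them (adjusted p from 0.0983 to 0.179). Cadmium array 1 ended those of Carhsp1 and Hspd1, PBS array 2 those of Carhsp1 and Ybx3, and cadmium or PBS array 3 those of Ybx3, Hnrnpk and Hspd1. The other 4 were the p53 targets Ccng1, Cdkn1a, Phlda3 and Zmat3, which rose, and whose calls held without any 1 array. Cirbp was at 0.15 there.

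Of 13 p53 targets 8 lay above 0 at 3 h, with a median of 0.08, 0 calls and 2 unadjusted p under 0.05. In the mean of the 4 cadmium effects, where 47 genes passed (0.570%), 15 of them higher (0.182%), Ccng1 rose by 0.94 ± 0.18, Cdkn1a, a cell cycle inhibitor gene, by 0.59 ± 0.13 and Btg2, an antiproliferative gene, by 0.24 ± 0.06 (SE; limma adjusted p = 0.00866, 0.0336 and 0.0448). The calls of Cdkn1a and Btg2 ended in 11 and 20 of 29 alternatives. In the mean of the 4 acetazolamide effects, where 61 genes passed (0.739%), 59 of them higher (0.715%), Zmat3, a zinc finger gene, rose by 0.43 ± 0.08 and Pdk1, a pyruvate dehydrogenase kinase gene of the hypoxia list, by 0.59 ± 0.14 (SE; limma adjusted p = 0.0174 and 0.0364). These ended in 2 and 14 of 29. The labels do not say whether both tissues came from the same litters, and the fit takes their arrays as independent. With the tissues averaged before the fit, the calls of Cdkn1a, Btg2, Zmat3 and Pdk1 ended and that of Ccng1 held. For Cdkn1a the mean at 3 h minus that at 12 h was -0.97 ± 0.20 (SE, limma adjusted p = 0.0437). In that contrast 6 genes passed (0.0727%), of which 2 lower (0.0242%). The call of Cdkn1a there ended in 32 of 53 alternatives, tissue averaging among them. Of 16 hypoxia genes 9 lay above 0 at 3 h, with a median of 0.01, 0 calls and 4 unadjusted p under 0.05, and Hif1a was at -0.28 for cadmium and Ndrg1 at 0.79 ± 0.25 for acetazolamide without passing.

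Likeness to Cirbp was measured as Pearson's r with its log2 ratio over the 24 treated arrays. Genes on 1 array share its RNA and its denominator arrays, so r is given as a description. Over all genes its median was 0.01 and the 1st and 99th percentiles were -0.45 and 0.49. The highest was Slc7a5 at 0.70, which encodes the light chain of a transporter of large neutral amino acids. It was followed by Cxadr, an adhesion and virus receptor gene, at 0.65, Ntmt1, an N-terminal methyltransferase gene, at 0.65, the dopamine receptor gene Drd4 at 0.65 and the zinc finger gene Zfp28 at 0.64. Ptpn9, a tyrosine phosphatase gene, Bcat1, a branched-chain aminotransferase gene, and the homeobox gene Rhox5 were each at 0.63. Within the 12 arrays of a time these values were mostly lower. At 3 h r was 0.86 for Slc7a5, 0.66 for Ptpn9, 0.61 for Bcat1, 0.49 for Drd4, 0.47 for Cxadr, 0.25 for Zfp28, 0.24 for Ntmt1 and 0.01 for Rhox5. At 12 h it was highest for Drd4 at 0.75, Rhox5 at 0.74 and Zfp28 at 0.63, and it ran from 0.06 for Ptpn9 to 0.32 for Slc7a5 among the other 5.

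At 3 h the mean differences of these genes were smaller than that of Cirbp, which was not so for all of them at 12 h. The mean difference at 3 h was 0.28 for Slc7a5, 0.29 for Cxadr, 0.30 for Ntmt1 and 0.26 for Drd4, against 0.86 for Cirbp, and from 0.01 to 0.16 for the other 4. In ectoderm 3 h after acetazolamide Slc7a5 stood at 1.0, 0.13 and 0.27, with the same array highest as for Cirbp, and vehicle arrays at 0.17, -0.20 and 0. The choice of genes also depended on the measure: with Spearman's rho 4 of the 8 were kept, and with r over the 8 differences 1 was.

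The genes least like Cirbp were Limd1, a LIM domain scaffold gene, at -0.73, Dnajb1 at -0.71, Rsrp1, which encodes a protein rich in arginine and serine, at -0.71 and Tut7, an RNA uridylyltransferase gene, at -0.68. Within the arrays of 3 h r was -0.52, -0.27, -0.33 and -0.51 for Limd1, Dnajb1, Rsrp1 and Tut7, and within those of 12 h it was -0.86, -0.67, -0.72 and -0.75. Rsrp1 was at -0.65 and -0.53 in ectoderm and mesoderm 3 h after cadmium and at -0.52 and -0.55 after acetazolamide. At 12 h it was at -0.53 and -0.19 after cadmium and at 0.88 and 0.32 after acetazolamide and lay on the opposite side of 0 from Cirbp in all 8 comparisons. Limd1 and Tut7 had means at 3 h of -0.09 and -0.04.

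**Figure D4:**
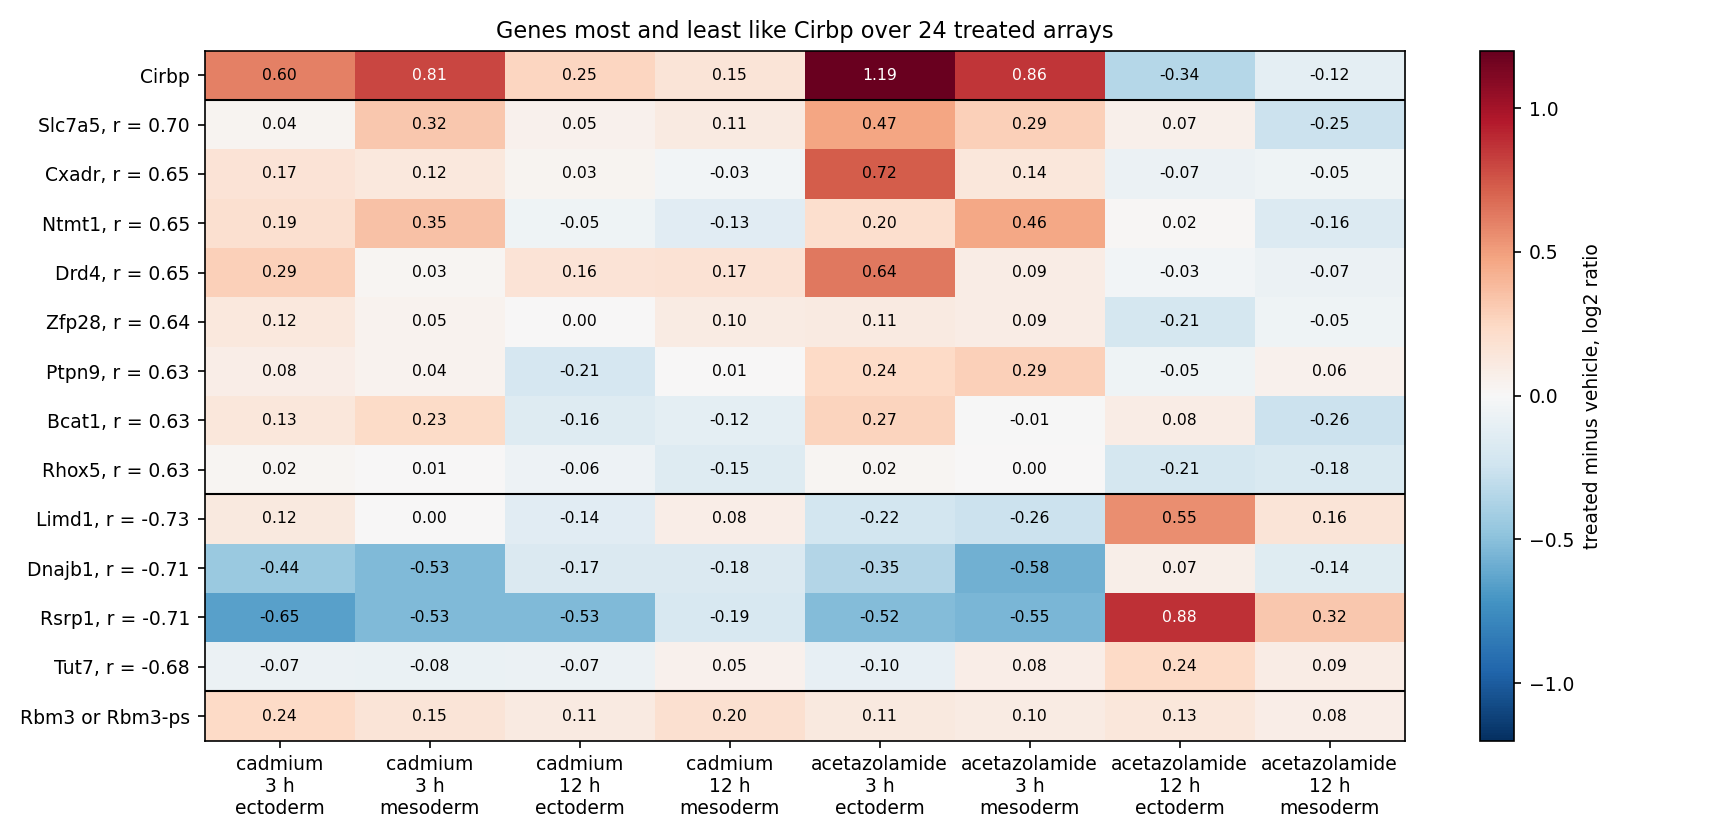
Difference between treated and vehicle arrays in log2 ratio (colour and printed value) in the 8 comparisons (horizontal axis) for Cirbp, the 8 genes most like it, the 4 least like it, each with its r over 24 treated arrays, and the probe set of Rbm3 or Rbm3-ps (vertical axis). Cirbp at 1.19 in ectoderm 3 h after acetazolamide has the largest value, and Dnajb1 is at or below -0.35 in the 4 comparisons at 3 h.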

How the data were processed

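RNA was measured on 48 Affymetrix MG-U74Av2 arrays. The values deposited by the authors give each array as a ratio, with vehicle arrays as the denominator, and how they were made is not given in the sources used here. On every probe set of each comparison, vehicle arrays 1 and 2 added up to 2 and vehicle array 3 equalled 1. The numbering is the only ground for assuming that treated arrays 1 and 2 were divided by the mean of the former pair and treated array 3 by the latter array. Without levels, no filter on dim probe sets, background correction or pseudocount could be applied. Precision is limited by how few arrays each group has.

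Ratios were turned into log2. Of the probe sets, 10855 named 1 gene, 396 several and 1237 none in the platform annotation. The first kind was averaged within genes (8252). The 1633 others were tested separately. Of 40 arrays with free values, 0 pairs were identical.

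All 8252 genes, Cirbp included, were fitted with limma 3.58.1 in R 4.3.3 on all 48 arrays. The fit had 16 denominator means, 8 effects, 1 precision weight per comparison and 24 residual degrees of freedom. Benjamini-Hochberg adjustment ran over all genes at 0.05. No limma p-value of Cirbp is given, but the counts of genes passing are over all 8252. The procedure was tested on simulated data. The p-values measure the spread between these arrays, which may be partly technical. Pearson correlations, lists and motif searches are descriptions, made with pandas 2.3.3.

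The named genes are Cirbp, the 8 most and 4 least correlated genes, Rbm3 and the neighbours of Cirbp in rank. List members that passed or had the largest mean effect of an agent are also named. Added later were the other leading genes at 3 h, further heat shock genes and genes of the list set beside Rbm3. Cirbp and the lists were chosen with earlier results of these data known. Alternatives were centring, no denominator block, no weights, only the 6 arrays of a comparison, a replicate block, tissue averages and leaving out each array.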

Additional observations from a re-analysis of the deposited data

Results flagged for a closer look

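Some genes had all treated arrays on 1 side of 0 in a group and on the other side in its counterpart, and except for Cdkn1a these differences were not tested. Only named genes were looked at, and the share of all genes that meets this rule is not given. In ectoderm after acetazolamide the difference from vehicle was 1.19 at 3 h and -0.34 at 12 h for Cirbp, 0.11 and -0.21 for Zfp28, -0.22 and 0.55 for Limd1, and -0.52 and 0.88 for Rsrp1. In mesoderm after acetazolamide it was 0.29 at 3 h and -0.25 at 12 h for Slc7a5, 0.46 and -0.16 for Ntmt1, and -0.55 and 0.32 for Rsrp1. In mesoderm after cadmium it was 0.35 at 3 h and -0.13 at 12 h for Ntmt1, 0.23 and -0.12 for Bcat1, and 0.04 and -0.33 for Ybx3. In ectoderm after cadmium Ptpn9 was at 0.08 at 3 h and -0.21 at 12 h. Hspd1 differed between tissues 12 h after acetazolamide, at 0.24 in ectoderm and -0.19 in mesoderm. For Cdkn1a the mean effect at 3 h minus that at 12 h was -0.97, tested in limma with an adjusted p of 0.0437. The like and unlike genes were chosen for their correlation with Cirbp on these arrays, so their times of opposite sign restate that choice in part.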

How the results depend on the processing

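The numbers of genes passing in limma changed with the settings, and they share no scale with the ratios of Cirbp. Of 136 values of Cirbp under other settings 134 lay within 1 SD of the reported one. The sign was the other one in 10, all for cadmium ectoderm at 12 h or the mean at 12 h. These values are not independent, and the replicate block always returned the reported value. Within a comparison, leaving out the last treated array, the last vehicle array or both gave the same value. A wide SD also admits large shifts. In acetazolamide ectoderm at the earlier time, values from 0.81 to 1.62 counted as within 1 SD, where the treated SD was 0.73.

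With each array left out in turn and the denominator means kept, Cirbp ran from 0.31 to 0.96 in cadmium ectoderm, 0.71 to 0.93 in cadmium mesoderm, 0.81 to 1.62 in acetazolamide ectoderm and 0.72 to 1.06 in acetazolamide mesoderm at 3 h. At 12 h the ranges were -0.02 to 0.49, 0.08 to 0.21, -0.43 to -0.13 and -0.20 to -0.03 in that order, and the means were 0.77 to 0.97 at 3 h and -0.08 to 0.04 at 12 h. Likewise the genes passing ran from 0 to 95, 0 to 13, 2 to 78 and 0 to 141 at 3 h and from 0 to 90, 58 to 361, 0 to 338 and 0 to 0 at 12 h. They ran from 11 to 227 for the mean of cadmium, 9 to 206 for the mean of acetazolamide, 24 to 129 for the mean at 3 h and 3 to 25 for the times' difference. List genes ran from 0 to 0, 0 to 2, 0 to 1 and 0 to 4 at 3 h, from 0 to 1, 5 to 15, 0 to 7 and 0 to 0 at 12 h, and from 1 to 5, 0 to 5, 1 to 3 and 0 to 3 for those 4 contrasts.

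Centring each array on its median gave 1 gene in cadmium ectoderm at 12 h, 8 in acetazolamide ectoderm at 3 h, 76 for the mean at 3 h and 4 list genes in cadmium mesoderm at 12 h. Without the denominator block the mean of acetazolamide had 92 genes and the times' difference 14. Without weights there were 89 genes (4 of the lists) in cadmium ectoderm and 22 (4) in cadmium mesoderm at 12 h, 1 in acetazolamide mesoderm at 3 h, 1 in acetazolamide ectoderm at 12 h, 105 for the mean of acetazolamide and 16 for the mean at 3 h. With only the 6 arrays of a comparison 0 genes passed, list genes included, in both cadmium comparisons at 12 h and both acetazolamide comparisons at 3 h. With the tissues averaged there were 30 genes (1 of the lists) for the mean of cadmium, 5 (0) for that of acetazolamide, 13 at 3 h and 2 (0) for the times' difference.

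With the array number as a replicate block 0 genes passed in cadmium ectoderm and 459 (21 of the lists) in cadmium mesoderm at 12 h, 5 in acetazolamide ectoderm at 3 h, 122 for the mean of acetazolamide and 76 (2) for the mean at 3 h. The labels do not say that a number pairs samples: 3 of 8 correlations of deviations exceeded 0.1 (-0.195 to 0.651), and number 3 could not be checked. The most alike genes shared 4 of 8 members with Spearman's rho and 1 with the 8 differences. The causes were not tested. Treating each probe set alone gave no further value, since Cirbp has 1.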
